A study of Mus musculus with 6 samples.

Results

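The genes described here encode the proteins of the cytosolic ribosome, and their signals were compared between CD8 T cells sorted as Eomes+ and as Eomes- from treated mouse tumours. Members were all genes with a symbol of the Rpl, Rplp, Rps or Rpsa type on at least 1 probe set annotated with that symbol alone, leaving out the Rps6k kinases and pseudogene symbols. This gave 49 of 18193 named genes, and the brightest of each gene's probe sets by the mean over all 6 arrays stood for the gene. The members were 20 proteins of the large 60S subunit, 2 P proteins of its stalk, 21 proteins of the small 40S subunit and 6 paralogs of such proteins. A further 110 probe sets name a ribosomal protein gene together with another symbol and were left out, and 30 of the symbols on them (Rpl5, Rplp1 and Rps12 among these) had no other probe set, so the ribosome is covered in part.

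The tumours were grown from the mouse fibrosarcoma line MCA-205 in male C57BL/6 mice with a GFP reporter of the transcription factor Eomes, and GFP was the basis of the sort. Both fractions were taken from mice given 250 ug of an OX40 antibody on days 12 and 16 and 200 ug of a CTLA-4 antibody on days 12, 14 and 16, with harvest on day 19. There were 3 arrays of each fraction, numbered 1 to 3, and no untreated group was analysed here. Independent experiments are mentioned in the labels, but which animals an array stands for is not said, so p-values cover only how these samples varied, and that variation may be technical. Eomes itself read 10.38, 9.86 and 8.38 log2 in Eomes+ samples 1, 2 and 3, against 6.85, 6.89 and 5.42 in Eomes- samples, so the fractions did not overlap in the gene they were sorted on. That difference of 3.15 log2 (SE 0.64) itself missed the threshold after adjustment over all genes (limma adjusted p = 1.00, unadjusted 0.00204), and it passed with the replicate number as a block (adjusted p = 0.016).

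The ribosome joins amino acids into protein. Its small subunit reads the mRNA, and its large subunit forms the peptide bond and holds the tunnel through which the new chain leaves. Ribosomal protein mRNAs are among the most abundant of a cell, and in mammals most begin with a C followed by a run of C and T, the terminal oligopyrimidine (TOP) tract, through which mTORC1 and the RNA-binding protein LARP1 adjust their translation together. T cells make many ribosomes when they are activated and divide, and resting memory cells translate little.

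Start-site sequences are shown for 8 members described below, 6 with a pyrimidine motif and 2 without, because the tract at the start is known from this gene family and was not used in the choice by symbol. Each is 30 bases of the coding strand, 5′ to 3′, from 10 before to 20 after the RefSeq start (build GRCm38.p6), and capitals mark any of 4 motifs, which are CTTTC, then CTTTT, further CTTCC and lastly CTTCT. Rpl35 lies at chr2:39005112-39005141 (minus strand), Rplp2 at chr7:141447641-141447670 (plus), Rpl38 at chr11:114668570-114668599 (plus), Rpl7a at chr2:26910797-26910826 (plus), Rps6 at chr4:86857348-86857377 (minus), Rps25 at chr9:44407704-44407733 (plus), Rps27 at chr3:90213629-90213658 (minus) and its paralog Rps27l at chr9:66946076-66946105 (plus).
Rpl35: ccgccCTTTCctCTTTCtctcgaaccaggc
Rplp2: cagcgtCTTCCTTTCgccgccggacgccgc
Rpl38: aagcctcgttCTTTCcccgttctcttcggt
Rpl7a: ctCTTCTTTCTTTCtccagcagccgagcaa
Rps6: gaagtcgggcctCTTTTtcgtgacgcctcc
Rps25: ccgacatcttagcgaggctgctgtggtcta
Rps27: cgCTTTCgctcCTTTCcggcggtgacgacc
Rps27l: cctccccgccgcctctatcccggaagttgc

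RefSeq held a promoter for 43 of the 49 members. In the window from 20 bases before to 30 after the first start listed, 26 of these 43 (60.5%) held at least 1 of the 4 motifs on the coding strand, against 25.2% of 27025 genes. On the opposite strand the shares were 27.9% and 28.0%. The motifs and window were chosen after several were tried, so these shares can differ more than with a choice fixed beforehand. Matches before the annotated start count too, though they would lie outside an mRNA that begins there. The motifs can overlap one another, as in Rpl7a and Rplp2. A match is a description of these letters, and annotated starts can lie some bases away from the start used in a cell. Among tested members with a promoter listed, the 25 with a motif on the coding strand had a median difference of 0.03 log2 between the fractions and the 15 without one -0.02.

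Ribosomal protein genes differed little in signal between the fractions. Of the 49 members, 46 lay above the level used as a filter (each array's 40th percentile, on at least 3 arrays) and were tested, and 23 of these had a higher and 23 a lower mean in Eomes+ cells (28 higher after quantile normalization), against 47.4% higher over all genes tested. The median difference, Eomes+ minus Eomes-, was 0.00037 log2 for the members and -0.02 log2 over all 12558 genes tested. In absolute size the median difference was 0.05 log2 for the members against 0.18 over all genes tested. Against other genes of bright or of dim signal, compared separately below, the members did not stand out in this way. The largest were -0.59 log2 for Rps27 and 0.41 for Rps25, and Rps27 alone among members reached 0.5 log2 in either direction, a size reached by 13.3% of all genes tested.

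No member passed the test: limma called 0 of 46 members and 0 of 12558 genes (0%) at an adjusted p under 0.05, and at an unadjusted p under 0.05 the counts were 0 members and 408 genes (3.25%). The members' smallest unadjusted limma p was 0.081. The fractions did not overlap for 3 of 46 members, Rps25 and Rpsa with Eomes+ above (3.05% of all genes tested) and Rpl7a with Eomes+ below (4.67%), against 7.72% in either direction, so this count is near the background. A missed threshold does not show that the fractions are alike, and the intervals give the size that the 6 arrays leave room for. The 95% interval of the difference lay within 0.5 log2 of 0 for 34 of the 46 members and within 0.25 log2 for 18.

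**Figure D1:**
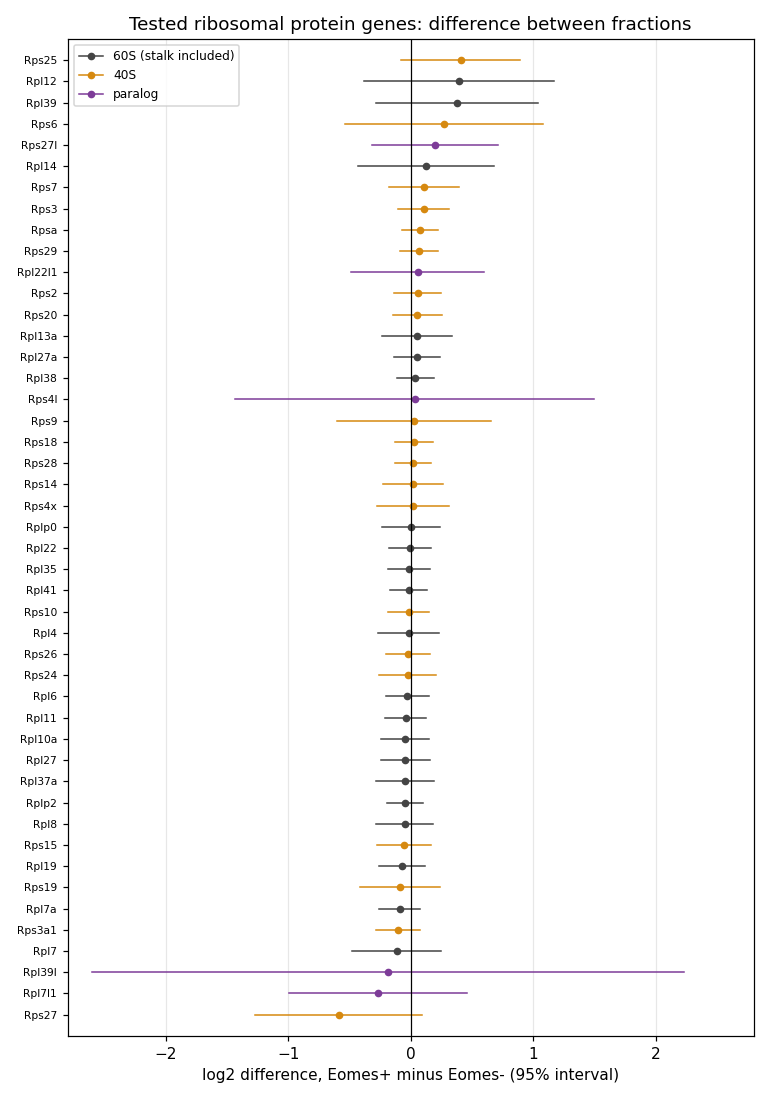
Log2 difference in signal, Eomes+ minus Eomes-, for the 46 tested ribosomal protein genes (points) with 95% intervals from the limma fit (lines), coloured by subunit or as paralogs, n = 3 arrays per fraction. All 46 intervals span 0, from Rps25 at 0.41 log2 down to Rps27 at -0.59 log2.

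The members' probe sets were among the brightest of the array, which bears on how such differences are read. The mean signal exceeded 13 log2 for 34 members, among 121 genes of the whole array, where the highest single value was 14.95. Among those 34 members, the differences lay between -0.11 and 0.11 log2 and the median SD within a fraction was 0.07 log2. The other 87 tested genes above 13 log2 had a median absolute difference of 0.05 log2, close to the 0.04 of the 34 members, and a median SD of 0.12. Whether signals this bright still follow the amount of RNA in proportion was not tested. The 12 tested members at or below 13 log2 had a median difference of 0.09 log2, a median absolute difference of 0.23 and a median SD of 0.32, and 8 of them had a higher mean in Eomes+ cells. Other tested genes at or below 13 log2 had a median absolute difference of 0.19 and a median SD of 0.36. On either side of 13 log2, members and other genes thus had similar median absolute differences.

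**Figure D2:**
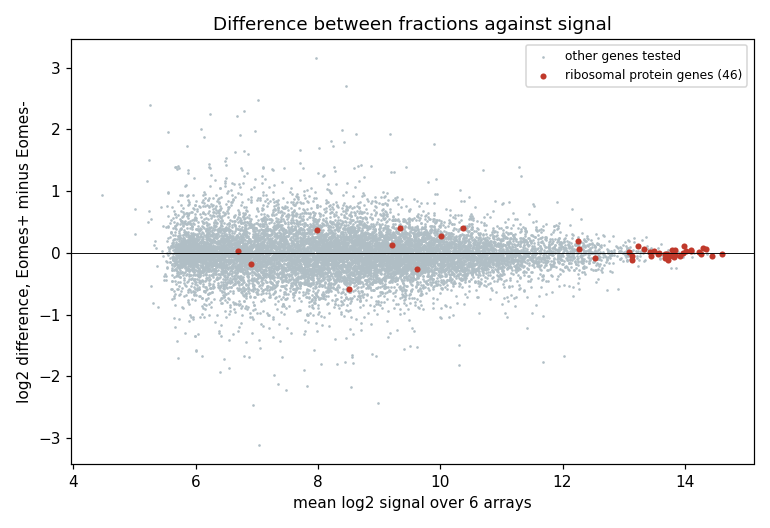
Log2 difference, Eomes+ minus Eomes-, against the mean log2 signal over all 6 arrays for the genes tested (grey) and the 46 tested ribosomal protein genes (red). Members above 13 log2 keep within 0.11 log2 of 0 on either side, and the members farthest from 0 lie at lower signal.

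In the large subunit, 7 of 21 tested genes (stalk included, paralogs apart) had a higher mean in Eomes+ cells and 14 a lower one, with a median of -0.02 log2. Rplp2, one of the acidic stalk proteins that recruit elongation factors, read 14.47, 14.42 and 14.36 log2 in Eomes+ and 14.43, 14.51 and 14.46 in Eomes-, here and below in the order of replicates 1, 2 and 3. Rplp0, which anchors the stalk, read 13.66, 13.64 and 13.43 against 13.59, 13.65 and 13.47. Both overlapped between fractions, with differences of -0.05 log2 (SE 0.06) and 0.01 (SE 0.10). Rpl41, the smallest ribosomal protein and the brightest member by probe set, lay between 14.54 and 14.67 log2 on all 6 arrays and differed by -0.02 log2 (SE 0.06).

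Rpl11, which binds 5S rRNA together with Rpl5 and restrains Mdm2 when ribosome assembly is disturbed, read 13.84, 13.82 and 13.78 log2 in Eomes+ against 13.83, 13.91 and 13.83. The difference was -0.04 log2 (SE 0.07), with the fractions overlapping. Rpl7a, a large-subunit protein, read 13.66, 13.64 and 13.60 log2 in Eomes+ and 13.70, 13.76 and 13.70 in Eomes-. The Eomes+ values were all below the Eomes- ones, by a mean of 0.09 log2 (difference -0.09, SE 0.07; limma adjusted p = 1.00, unadjusted 0.251).

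Rpl38, known for its part in translating Hox mRNAs in the embryo, read 14.12, 14.13 and 14.11 against 14.12, 14.09 and 14.04 log2, a difference of 0.04 (SE 0.06). Rpl13a, which can leave the ribosome after interferon-gamma signalling in myeloid cells, read 14.20, 14.14 and 14.06 against 14.26, 14.13 and 13.84 log2. Its difference was 0.05 log2 (SE 0.12), with array 3 the lowest in both fractions. Rpl19 differed by -0.07 log2 (SE 0.08) and Rpl7 by -0.11 (SE 0.15), both with overlapping fractions. Rpl35, at 14.36, 14.20 and 14.22 against 14.24, 14.26 and 14.32 log2, differed by -0.01 (SE 0.07).

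The 2 large-subunit genes with the widest differences were measured by dimmer probe sets. Rpl12, a protein at the stalk base, read 9.40, 9.50 and 9.74 log2 in Eomes+ and 9.36, 9.59 and 8.50 in Eomes-. Its difference of 0.40 log2 (SE 0.32; limma unadjusted p = 0.262) rested on the low Eomes- array 3, and it was -0.03 log2 without both arrays of replicate 3. Rpl39, a small protein in the wall of the exit tunnel, read 8.30, 7.97 and 8.23 against 8.12, 7.82 and 7.43 log2, a difference of 0.38 (SE 0.27; limma unadjusted p = 0.214) that was 0.20 without Eomes- array 3. The fractions overlapped for both genes. Of the 6 tested members that line or rim the exit tunnel, Rpl39 included, 2 had a higher and 4 a lower mean in Eomes+ cells, with a median of -0.01 log2.

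In the small subunit, 13 of 20 tested genes had a higher mean in Eomes+ cells and 7 a lower one, with a median of 0.02 log2. The shares of higher means in the 2 subunits were not compared by a test. Rps25, a protein of the 40S head used by viral internal ribosome entry sites, read 10.75, 10.35 and 10.61 log2 in Eomes+ and 10.31, 10.30 and 9.89 in Eomes-. The Eomes+ values were all above the Eomes- ones, and the difference was 0.41 log2, a 1.33-fold higher signal (SE 0.20, 95% interval -0.08 to 0.89; limma adjusted p = 1.00, unadjusted 0.086). Without both arrays of replicate 3 it was 0.25 log2, and with array weights 0.14. The only Rps25 probe set with 1 symbol was also dim for this family, at a mean of 10.37 log2 against a median of 13.67 over tested members.

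Rpsa, which is also known as the laminin receptor, read 14.38, 14.36 and 14.29 log2 in Eomes+ against 14.28, 14.27 and 14.25. These values do not overlap, but the lowest Eomes+ and the highest Eomes- array were 0.02 log2 apart, and the difference was 0.08 (SE 0.06; limma adjusted p = 1.00, unadjusted 0.253). The other Rpsa probe set, at a mean of 4.89 log2, was above the filter level on 0 arrays. Rps3, at the mRNA entry site, read 14.08, 14.06 and 13.97 against 14.03, 13.97 and 13.79 log2, a difference of 0.11 (SE 0.09) with overlapping fractions. Rps29 and Rps7 differed by 0.07 (SE 0.06) and 0.11 log2 (SE 0.12). The Rps7 value was 0.0145 without Eomes- array 3, and the other Rps7 probe set (mean 12.82) gave -0.0019, with numbers 2 and 3 below 0. By the brightest probe set, Rpsa, Rps3, Rps29 and Rps7 were higher in Eomes+ in each replicate number, as were 12 of the 46 tested members, against 14% of all genes tested. The opposite held for 6 members, with 17.3% of all genes tested, which makes 18 of 46 with 1 sign throughout against 31.4%.

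Rps6, the substrate of S6 kinase downstream of mTORC1, read 10.56, 10.16 and 9.70 log2 in Eomes+ and 10.30, 9.99 and 9.32 in Eomes-. Arrays of number 3 were the lowest in both fractions, and the difference between fractions was 0.27 log2 (SE 0.34), inside that spread, and -0.0063 without Eomes- array 3. Rps9 had the same order, at 13.85, 13.47 and 13.20 against 13.95, 13.44 and 13.05 log2, and its range over the 6 arrays (0.90 log2) was the widest among members above 13 log2. Its difference between fractions was 0.03 log2 (SE 0.26). Another Rps9 probe set, of nearly the same brightness (mean 13.40), gave -0.24 log2 with Eomes+ below Eomes- on all arrays, so the value depends on the probe set. Rps19 and Rps14, each mutated or deleted in human disorders of red cell production, differed by -0.08 (SE 0.14) and 0.02 log2 (SE 0.10).

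On the lower side, Rps27, a zinc-finger protein of the small subunit, had the largest difference of any member. It read 7.81, 8.28 and 8.55 log2 in Eomes+ and 8.86, 9.00 and 8.54 in Eomes-, so arrays 1 and 2 of Eomes+ lay below all Eomes- arrays and array 3 did not. The difference was -0.59 log2, a 1.50-fold lower signal in Eomes+ (SE 0.28, 95% interval -1.27 to 0.10; limma adjusted p = 1.00, unadjusted 0.081). It was -0.35 log2 without both arrays of replicate 1 and -0.89 without both of replicate 3. With array weights it was -0.71 log2 and still missed the threshold (limma adjusted p = 0.068), in a fit that called 247 of all genes. The only Rps27 probe set with 1 symbol was dim, with a mean of 8.51 log2 against a median of 13.67 over tested members. How well it reports the gene's main mRNA was not tested. Rps3a1 read 13.76, 13.63 and 13.64 against 13.77, 13.83 and 13.75 log2, a difference of -0.11 (SE 0.07).

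Rps16 and Rpl37, proteins of the small and the large subunit, lay below the filter with Rpl3l and were not tested. Their only probe sets with 1 symbol read between 3.32 and 3.76 log2 for Rps16 and between 5.03 and 5.77 for Rpl37, where the 40th percentile of the arrays lay between 5.70 and 5.72. A value there gives no amount for these mRNAs.

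**Figure D3:**
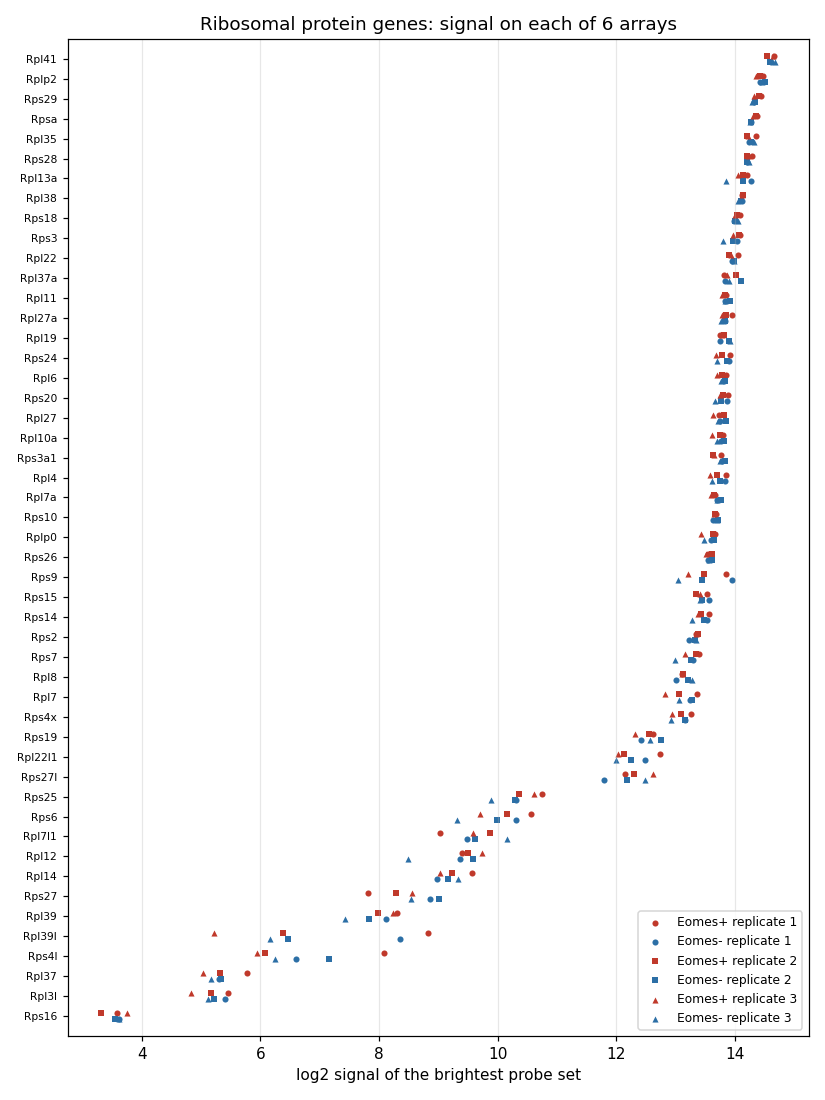
Log2 signal of the brightest probe set of each of the 49 ribosomal protein genes on each array, Eomes+ in red and Eomes- in blue, with the marker shape giving the replicate number. The upper 34 genes have means above 13 log2, with single points down to 12.82 (Rpl7, Eomes+ array 3), and spread between arrays is widest for Rpl39l and Rps4l. Signals of different genes come from different probe sets and are not comparable as amounts.

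Paralogs varied more between arrays of a fraction than the subunit genes, with a median SD of 0.39 log2 for the 5 tested against 0.08 in the large and 0.09 in the small subunit, and were also dimmer. Rps27l, a paralog of Rps27 and a p53 target, read 12.14, 12.29 and 12.62 log2 in Eomes+ and 11.80, 12.18 and 12.49 in Eomes-. The fractions overlapped, and Eomes+ was higher within each number, by a mean of 0.20 log2 (SE 0.21; limma adjusted p = 1.00) that was 0.020 without Eomes- array 1. Its other probe sets differed by 0.13 and 0.28 log2 in the same direction. For Rps27 there was only the dim probe set described above. Rps27l minus Rps27 differed between fractions by 0.78 log2, or 1.40, 0.84 and 0.12 for numbers 1, 2 and 3 (two-sided p = 0.1 by exact permutation, which is the lowest value possible with 3 against 3, and 0.5 adjusted over the 5 pairs compared).

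Rpl22l1, the paralog that can replace Rpl22 and is held down by it, read 12.73, 12.13 and 12.03 log2 against 12.48, 12.24 and 11.99. Rpl22, needed for alpha-beta T cell development, read 14.05, 13.90 and 13.93 against 13.94, 13.98 and 13.98. The differences were 0.06 (SE 0.23) and -0.0049 log2 (SE 0.07), and the shift of the pair was 0.06 log2 (exact permutation p = 0.8, adjusted 1). Rpl7l1, a paralog of Rpl7, differed by -0.27 log2 (SE 0.30), and its other probe sets by -0.05 and 0.54, so the direction depends on the probe set.

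Rpl39l, best known from male germ cells, read 8.82, 6.38 and 5.22 log2 in Eomes+ and 8.35, 6.47 and 6.15 in Eomes-. Both arrays of number 1 stood above the other 4, and the difference between fractions was -0.18 log2 (SE 1.01). Rps4l read 8.09, 6.08 and 5.95 against 6.60, 7.16 and 6.25 log2, where Eomes+ array 1 was the highest (difference 0.03, SE 0.61). The pairs with Rpl39 and Rps4x shifted by -0.56 and 0.01 log2 (exact permutation p = 0.7 and 1). Rpl3l, a paralog of striated muscle, lay between 4.82 and 5.46 log2 on all arrays, near background.

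The sign of the small differences varied between replicate numbers. In number 1, 36 of the 46 tested members were higher in Eomes+, with a median of 0.05 log2. In number 2 the count was 18 of 46 (median -0.05) and in number 3 it was 19 of 46 (median -0.03). Over all genes tested the shares higher were 48.8%, 47.9% and 47.3%, and the medians -0.01, -0.02 and -0.03 log2. In the large subunit 17, 5 and 5 of 21 genes were higher in numbers 1, 2 and 3, and in the small subunit 15, 11 and 12 of 20. Leaving out 1 array, or both arrays of 1 number, moved the count of members with a higher mean between 16 (without Eomes+ array 1, or without both arrays of number 1) and 34 (without Eomes+ array 3), with medians between -0.04 and 0.04 log2.

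**Figure D4:**
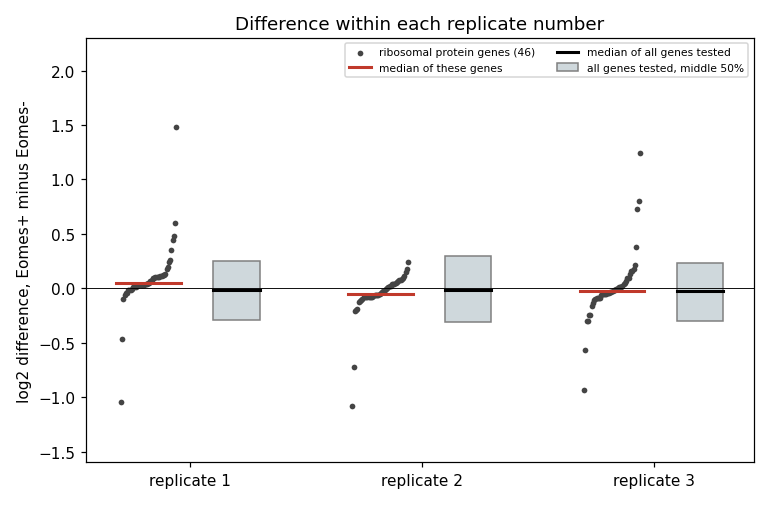
Log2 difference, Eomes+ minus Eomes-, within each replicate number for the 46 tested ribosomal protein genes (dots, ordered by value, with the median as a red line) and for all genes tested (box from the 25th to the 75th percentile, median in black). The members' median is 0.05 log2 in number 1, -0.05 in number 2 and -0.03 in number 3.

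Markers of other cell types differed widely between arrays, while the summed ribosomal protein signal did so little. The sum over the 49 members was 19.06, 18.99 and 18.93 log2 in Eomes+ and 19.01, 19.02 and 18.94 in Eomes-. The 16 T cell and CD8 identity genes measured, all above the filter, summed to between 15.08 and 16.25 log2 in Eomes+ and between 15.28 and 16.39 in Eomes-, lowest on arrays of number 3. Tumour and fibroblast markers (21 of 22 above the filter) ran from 14.00 to 16.48 and from 13.78 to 16.63 log2, highest on number 3. Macrophage markers (21 of 21) ran from 14.30 to 16.30 and from 14.11 to 16.35. By mean, 20 of 21 tested tumour and fibroblast genes (median 0.30 log2) and 17 of 21 macrophage genes (0.23) were higher in Eomes+. Of the T cell genes 4 of 16 were higher (median -0.14). Within numbers 1, 2 and 3, 13, 21 and 2 of the 21 tumour and fibroblast genes were higher in Eomes+. In these 3 lists 0 genes had an unadjusted limma p under 0.05. A fit with the mean of the tumour, fibroblast and macrophage markers as a covariate was among the alternatives and called 0 members. It called few of all genes tested (count in the closing section), so 0 members is near the background. It gave 0.13 log2 for Rps27l, 0.38 for Rps6 and -0.60 for Rps27, against 0.20, 0.27 and -0.59 in the main fit. Beyond this, the part of these cells in any difference named here was not tested. In bulk RNA fewer cells of a type and less RNA per cell cannot be told apart.

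**Figure D5:**
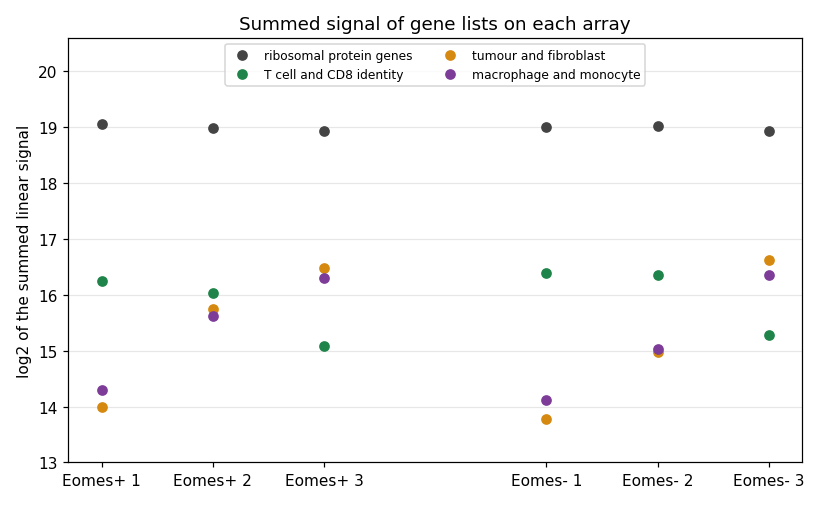
Log2 of the summed linear signal on each array for the 49 ribosomal protein genes and for marker lists of T cells, of tumour cells and fibroblasts, and of macrophages. The ribosomal protein sum stays between 18.93 and 19.06 log2, while the tumour and fibroblast sum runs from 13.78 to 16.63 log2.

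RNA quality also differed between arrays. The 3′ minus 5′ control signal of Gapdh was 1.88, 1.77 and 1.55 log2 in Eomes+ and 1.54, 1.07 and 1.11 in Eomes-, with no overlap. For Actb it lay between 0.08 and 0.17 and between -0.0022 and 0.11 log2, with overlap. Its part in the members' differences was not tested.

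In 7 lists of genes that build ribosomes, use them or regulate their production, 0 genes passed the limma test at an adjusted p under 0.05. Of 62 tested ribosome biogenesis genes 36 had a higher mean in Eomes+ cells (median 0.04 log2), and 3 had an unadjusted limma p under 0.05 (4.84%, against 3.25% of all genes tested). The fractions did not overlap for 5 of the 62 (8.06%, against 7.72%), so both counts are near the background. Dkc1, the pseudouridine synthase of rRNA, read 11.48, 11.33 and 11.31 against 10.94, 10.66 and 10.90 log2, a difference of 0.54 (SE 0.15) that was -0.0099 for the brightest of its probe sets without a name suffix. Tsr1, a factor of 40S assembly, differed by 0.53 log2 (SE 0.15; 0.27 averaged over its probe sets) and Nle1, a factor of 60S assembly, by -0.75 (SE 0.24). All 3 had fractions that did not overlap and limma adjusted p = 1.00. The nucleolar protein gene Npm1 differed by 0.06 log2 (SE 0.08).

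RNA polymerase I genes, which serve the making of rRNA, were split between 8 higher and 10 lower means of 18 tested (median -0.02 log2). Of the 18, 2 had an unadjusted limma p under 0.05 (11.1%, against 3.25% of all genes tested), Ubtf and Znrd1. The fractions did not overlap for 4 (22.2%, against 7.72%), 1 with Eomes+ above and 3 below. Whether such counts from so few genes exceed the background was not tested. Ubtf, the factor that opens rDNA for transcription, read 9.73, 10.22 and 10.02 log2 against 10.39, 10.71 and 10.37, a difference of -0.49 (SE 0.20). The polymerase subunit genes Znrd1 and Polr1c differed by -0.37 (SE 0.15) and 0.23 log2 (SE 0.14), the latter 0.067 with probe sets without a suffix. Among 15 chaperones and importins of ribosomal proteins, 9 had a higher mean and the median was 0.02 log2. Nap1l1, a histone chaperone, differed by -0.28 log2 (SE 0.10).

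Translation factors included other mRNAs with a TOP tract. Of 34 tested initiation factors 10 had a higher and 24 a lower mean in Eomes+ cells (median -0.11 log2), against 47.4% higher over all genes tested. At an unadjusted limma p under 0.05 there were 0, against 3.25% of all genes tested. Fractions without overlap were found for 3 of the 34 (8.82%, against 7.72%). The split of higher and lower means was not tested. Eif4b, a TOP mRNA whose protein aids the helicase eIF4A, read 11.70, 11.76 and 12.15 against 12.00, 12.04 and 12.43 log2, lower in each replicate number (difference -0.29, SE 0.18; -0.15 without Eomes- array 3). Of 12 elongation and release factors 5 had a higher mean (median -0.01 log2). Eef1a1 and Tpt1, also TOP mRNAs, differed by -0.0046 (SE 0.10) and 0.05 log2 (SE 0.11). Fau, which encodes the small-subunit protein eS30 and falls outside the symbol rule, differed by -0.03 log2 (SE 0.09).

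Regulators of ribosome production had 19 higher and 16 lower means of 35 tested (median 0.0037 log2). Only Lamtor4, 1 of the 35, had an unadjusted limma p under 0.05 (2.86%, against 3.25% of all genes tested). For 5 of the 35 the fractions did not overlap (14.3%, against 7.72%). Whether that count exceeds the background was not tested. Lamtor4, a subunit of the Ragulator complex that brings mTORC1 to the lysosome, read 9.76, 9.75 and 9.49 log2 in Eomes+ and 10.46, 10.58 and 10.47 in Eomes-. The fractions did not overlap, and the difference was -0.84 log2 (SE 0.17; limma adjusted p = 1.00, unadjusted 0.00203). Mtor differed by -0.18 log2 (SE 0.38), Larp1 by 0.12 (SE 0.21) and Myc by 0.05 (SE 0.13), each with overlapping fractions. In the list of the p53 response and Mdm2, 2 of 10 tested genes had a higher mean (median -0.23 log2), against 47.4% of all genes tested. Mdm2 differed by -0.49 (SE 0.23; 0.02 for the brightest of its probe sets without a name suffix) and Cdkn1a by -0.36 (SE 0.53). Any tie of these mRNAs to Rpl11 was not tested.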

How the data were processed

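RNA of 6 samples, 3 of each fraction, was measured on mouse expression arrays. The deposited values are log2 signals of 45101 probe sets, and the submitters' processing notes name Transcriptome Analysis Console and MAS5, with versions and roles not given in the sources used here. Array medians lay between 6.35 and 6.42 log2, so the values were used as deposited, and precision is limited by having only 6 arrays. Symbols came from the platform annotation: 34945 probe sets had 1 symbol, 932 several and 9160 none. A name suffix s or x marks probes that can bind transcripts of related genes, and suffix a marks alternative transcripts of 1 gene. Of the 34 members resting on a probe set with a suffix, 21 had a, 12 had x and 1 had s. Near-identical copies could therefore share signal, by name for the members with x or s.

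The brightest probe set of each gene was kept, then genes above the 40th percentile on at least 3 arrays. limma 3.58.1 in R 4.3.3 (lmFit, eBayes with intensity trend, checked on simulated data) compared the fractions, with Benjamini-Hochberg adjustment over all genes tested. Named members were those with the smallest p in each direction, the brightest, the dimmest, those of widest range, paralogs with their partners, and a fixed set; in other lists, those with the smallest p and a fixed set. Rps9, the genes whose sequences are printed, the motifs and window (several were tried), the 13 log2 level, the bounds of 0.5 and 0.25 log2, the paralog pairs and the probe sets singled out in the closing section were chosen after values were seen. The members and lists were chosen with earlier results of these data known. Alternatives covered the probe set choice, filters, scaling, pseudocount, trend, array weights, replicate block, an other-cell covariate and arrays left out.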

Additional observations from a re-analysis of the deposited data

How the results depend on the processing

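No ribosomal protein gene was called under any of 20 alternatives, and their median difference stayed between -0.04 and 0.04 log2, also with arrays left out. Up to 4 members had an unadjusted limma p under 0.05, a count reached with array weights. In that fit the share of all genes tested with such a p was larger than the share of members. The 4 members were therefore not above the background. Over all genes, 0 were called without arrays of any 1 sample or number, 17 with the replicate number as a block, 247 with array weights and 8 with an other-cell covariate; the cause was not tested. With the replicate block 0 members were called and their median was 0.00037 log2. The correlation of deviations within numbers 1, 2 and 3 was 0.722, 0.0976 and 0.743. Across numbers 1 and 3 it was -0.738 and -0.687, so these numbers varied alike in both fractions. Eomes- array 2 correlated better with Eomes+ array 1 (0.407) than with its own number. With 3 arrays per fraction, these correlations cannot decide whether the numbers are pairs. The main fit did not take them as pairs, so its SEs, intervals and p-values include variation shared within a number. With the block, more genes had an unadjusted p under 0.05 than the 408 of the main fit. Of 1277 values of 64 named genes under the alternatives, 1183 kept direction and call, 6 passed the threshold (Eomes with the block, array weights or covariate, and Dkc1, Tsr1 and Lamtor4 with array weights) and 88 changed sign, 77 of these with a main difference within 1 SE of 0; the causes were not tested. Averaging all probe sets gave Rpsa -0.060 (its other probe set lies below the filter on every array), Rpl7l1 0.075, Rpl41 0.017, Rpl35 0.050, Rps14 -0.024, Eif3c 0.022, Eif4e2 -0.081, Eef1d -0.13 and Eef2 0.028 log2. Probe sets without a suffix gave Rpl35 0.36, Rpl22 0.010, Dkc1 -0.0099, Eif4e2 -0.22, Btf3 0.018 and Mdm2 0.025. Quantile normalization gave Rpl41 0.012 and Rpl22 0.0075, and median centring Rpl22 0.0034 and Eef1a1 0.0038. Array weights gave Rpl12 -0.010, Rpl7l1 0.12, Rps4l -0.80, Rpl22l1 -0.074, Rps4x -0.052, Rplp0 -0.022, Rps14 -0.050, Myc -0.022, Mtor 0.11 and Larp1 -0.025. The other-cell covariate gave Rpl39l 0.14, Rpl22 0.00022 and Eef1a1 0.022. With arrays left out, values that changed sign ranged from -0.69 to 0.59 for Rps4l, -0.16 to 0.19 for Rpl22l1, -0.065 to 0.10 for Rps4x, -0.046 to 0.078 for Rplp0, -0.057 to 0.069 for Rps14, -0.94 to 0.094 for Cdkn1a, -0.039 to 0.14 for Tpt1, -0.062 to 0.12 for Myc, -0.39 to 0.19 for Mtor, -0.036 to 0.25 for Larp1, -0.045 to 0.021 for Rpl41, -0.079 to 0.025 for Rpl35, -1.19 to 0.61 for Rpl39l, -0.061 to 0.033 for Rpl22, -0.25 to 0.014 for Rpl7, -0.22 to 0.0049 for Rps19, -0.085 to 0.063 for Eef1a1, -0.072 to 0.031 for Fau, -0.0063 to 0.49 for Rps6, -0.065 to 0.15 for Rpl13a and -0.025 to 0.64 for Rpl12.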

Other observations

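A dim probe set of Rps9, at a mean of 7.10 log2, read 7.86, 7.59 and 7.09 in Eomes+ and 6.79, 7.49 and 5.81 in Eomes-, a difference of 0.82 log2, where the brightest probe set of the gene gave 0.03 and the remaining one -0.24 with no overlap between the fractions. Of 23 members with several probe sets above the filter, 14 had all of them on 1 side of 0 and 9 on both sides.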
